A study of Mus musculus with 30 samples.

Results

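The 10 collagen genes Col1a1, Col4a1, Col4a2, Col5a1, Col6a1, Col6a2, Col7a1, Col12a1, Col17a1 and Col18a1 were followed by symbol through 29 RNA-seq libraries of 4T1 cells, a mouse mammary carcinoma line. They are 10 of the 44 genes with a collagen alpha-chain symbol and 10 of 39253 genes in the count table, and all 10 passed the filter on low counts that left 13008 genes for testing. The cells were cultured for 72 or 48 h with small extracellular vesicles (sEVs, membrane-bound particles that cells release) from primary neutrophils, which were taken by their Ly6G marker from wild-type female BALB/c mice. These neutrophils had been kept for 48 h with 27-hydroxycholesterol (27HC, a cholesterol metabolite of the oxysterol class) at 10 µM or with its vehicle, DMSO. At 72 and at 48 h the groups were non-adherent cells under 27HC-sEVs, adherent cells under 27HC-sEVs, and adherent cells under DMSO-sEVs. There were 5 libraries a group, but 4 for the non-adherent fraction at 72 h, whose replicate 5 the authors had removed as an outlier. Every group received neutrophil vesicles, no group of cells without vesicles is among them, and no non-adherent cells under DMSO-sEVs are either.

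Collagens are built from 3 alpha chains that wind into a triple helix after the chains have been hydroxylated and folded in the endoplasmic reticulum. Types I and V form fibrils, type XII decorates fibrils, and type VI makes beaded filaments around cells. Types IV and XVIII belong to basement membranes, the sheets that lie under epithelia. Type VII forms the fibrils that anchor such a sheet to the tissue beneath, and type XVII spans the cell membrane at hemidesmosomes. Carcinoma cells make part of this matrix themselves, while much of the fibrillar collagen of a tumour comes from fibroblasts.

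Col4a1 and Col4a2, whose products join in a 2 to 1 ratio in the main type IV collagen, are neighbours that are read in opposite directions. Their promoter windows (RefSeq, GRCm38.p6, 250 bases before to 50 after the start) are shown because they overlap. Whether the windows bear on the levels of the genes was not tested. The Col4a1 window lies at chr8:11312777-11313076 on the minus strand and the Col4a2 window at chr8:11312555-11312854 on the plus strand. The 2 annotated starts are 21 bases apart, and the windows have 78 bases in common, given in capitals.
Col4a1: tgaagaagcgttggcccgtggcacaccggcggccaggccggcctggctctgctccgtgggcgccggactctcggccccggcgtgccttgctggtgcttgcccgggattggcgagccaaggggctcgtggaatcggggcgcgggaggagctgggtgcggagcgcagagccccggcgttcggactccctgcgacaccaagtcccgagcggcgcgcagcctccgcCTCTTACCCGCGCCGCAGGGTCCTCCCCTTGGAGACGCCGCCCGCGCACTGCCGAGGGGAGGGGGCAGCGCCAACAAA
Col4a2: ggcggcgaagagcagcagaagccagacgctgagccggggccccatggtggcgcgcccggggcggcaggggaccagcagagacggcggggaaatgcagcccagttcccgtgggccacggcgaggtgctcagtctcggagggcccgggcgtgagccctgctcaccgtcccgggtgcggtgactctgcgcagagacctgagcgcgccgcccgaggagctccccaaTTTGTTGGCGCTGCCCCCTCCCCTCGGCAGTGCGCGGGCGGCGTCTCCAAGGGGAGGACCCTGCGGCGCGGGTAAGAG
The Col17a1 window (chr19:47691993-47692292, minus strand) is shown as well. Of the members Col17a1 alone was higher at both times in adherent 27HC-sEV than in DMSO-sEV cells, and a link to its window was not tested. Capitals mark its 2 matches to TATAAA.
Col17a1: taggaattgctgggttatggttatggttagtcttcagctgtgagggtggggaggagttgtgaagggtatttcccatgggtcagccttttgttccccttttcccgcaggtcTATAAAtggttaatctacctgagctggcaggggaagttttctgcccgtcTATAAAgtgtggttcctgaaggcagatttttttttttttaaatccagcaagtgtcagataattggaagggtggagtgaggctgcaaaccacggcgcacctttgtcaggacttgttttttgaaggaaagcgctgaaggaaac
The motifs named below were searched on both strands in the windows of the 8 members with an entry, Col1a1 and Col12a1 being the others. TATAAA was found in Col17a1 alone of these members and in 13.6% of all 32851 windows. GGGCGG was in both type IV windows and in those of Col5a1, Col6a2, Col7a1 and Col18a1, against 35.7% of all windows. CCAAT was in the windows of Col4a1, Col4a2, Col7a1, Col17a1 and Col18a1, against 37.4% of all windows, and TGACTCA in that of Col6a1, against 5.2%. A match describes the letters and is no evidence that a factor binds there.

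Estimated counts summed to between 18794529 and 31358795 a library. All 10 epithelial markers of the line averaged at least 1 CPM (count scaled by library size) in every group, but their sum differed between groups. At 72 h it ran from 2545 to 2721 CPM in non-adherent, 2916 to 3357 CPM in adherent 27HC-sEV and 3647 to 4730 CPM in DMSO-sEV cells. At 48 h it ran from 3226 to 3423, 3493 to 4152 and 4121 to 5177 CPM in the same order. The fibroblast collagen genes Col3a1, Col1a2 and Col6a3 reached at most 0, 5.1 and 2.0 estimated counts in any library. Whether a replicate is a culture or a vesicle batch of its own is not given in the labels, so all p-values refer to library-to-library spread, part or all of which may be technical. In bulk RNA, fewer cells of a type and less RNA per cell cannot be told apart. Macrophage and neutrophil markers moved with some comparisons. The summed 7 macrophage markers ran from 10.3 to 13.3 CPM in adherent 27HC-sEV cells at 72 h, against 1.92 to 4.26 CPM in DMSO-sEV cells, with Adgre1, C1qa and C1qb at 0 in all libraries. At 48 h they ran from 6.32 to 9.28 CPM in adherent 27HC-sEV cells, against 2.74 to 3.88 CPM in DMSO-sEV cells. The highest value in any library was 9.40 CPM for Cd68, 2.46 for Csf1r, 1.91 for Mrc1 and 0.0809 for Lyz2. The 11 neutrophil markers summed to between 1.25 and 1.73 CPM in adherent 27HC-sEV cells at 72 h, against 0.157 to 0.491 CPM in DMSO-sEV cells. Ly6g, Mpo, Elane and Csf3r were at 0 in all libraries. The highest value in any library was 1.48 CPM for S100a8, 0.541 for S100a9 and 0.151 for any other neutrophil marker. At 48 h the neutrophil sums were 0.159 to 0.474 CPM in adherent 27HC-sEV cells, against 0.0473 to 0.213 CPM in DMSO-sEV cells. The 10 fibroblast markers, of which Pdgfra and Postn made most of the sum, ran from 29.6 to 36.4 CPM in adherent 27HC-sEV cells at 72 h. In DMSO-sEV cells at 72 h these ran from 28.1 to 31.5 CPM. At 48 h they ran from 26.5 to 40.5 CPM in adherent 27HC-sEV cells and from 34.0 to 53.4 CPM in DMSO-sEV cells. Whether these marker values come from other cells or from the 4T1 cells was not tested, nor was their part in the collagen results.

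Collagen transcripts are long, between 4.1 kb for Col6a1 and 11.5 kb for Col12a1 in the GENCODE M21 transcripts used here, and the libraries differed in how their values ran with transcript length. Slopes per doubling of length were taken on each gene's log2 CPM less its mean over the 29 libraries. They compare a library with that average and do not give its own dependence on length. The slope averaged 0.11 (SD 0.01, n = 4) in non-adherent cells at 72 h, -0.01 (SD 0.05, n = 5) in adherent 27HC-sEV cells and -0.22 (SD 0.15, n = 5) in DMSO-sEV cells. In DMSO-sEV cells at 72 h it was -0.32, -0.38 and -0.27 in replicates 1 to 3, and -0.07 in both replicates 4 and 5. At 48 h it averaged 0.19 (SD 0.04, n = 5) in non-adherent cells, -0.02 (SD 0.06, n = 5) in adherent 27HC-sEV cells and -0.03 (SD 0.08, n = 5) in DMSO-sEV cells. The DMSO-sEV replicates divided at 48 h too, with -0.11, -0.09 and -0.05 in replicates 1 to 3, and 0.06 and 0.05 in replicates 4 and 5. As a class, genes with transcripts of 5 kb or more had a median log2 fold change of 0.24 between adherent 27HC-sEV and DMSO-sEV cells at 72 h and of 0.03 at 48 h. Between non-adherent and adherent cells their median was 0.16 at 72 h and 0.23 at 48 h. For the 10 genes, values from a fit with a length and GC offset per library are given where that fit ends or adds a call, turns its direction or moves a called log2 fold change by over 1.5 times. Values of other genes are without an offset.

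Per kilobase of transcript, Col4a1 had the highest mean of the 10 genes in all 6 groups, followed by Col18a1, whose product releases the fragment endostatin. Col4a1 averaged 48.0, 49.6 and 26.0 CPM per kb at 72 h, and 69.8, 43.5 and 62.2 CPM per kb at 48 h, in non-adherent, adherent 27HC-sEV and DMSO-sEV cells in that order. Col18a1 averaged 38.5, 36.0 and 22.4 CPM per kb at 72 h and 51.2, 30.2 and 44.3 CPM per kb at 48 h, and its library ranges overlapped those of Col4a1 in every group. Below these came Col4a2 and Col7a1, then Col6a1 and Col5a1. Col12a1 and Col17a1 lay lower, Col12a1 between 0.406 and 1.80 CPM per kb and Col17a1 between 0.138 and 0.462 CPM per kb as group means. Col4a2 came next after Col18a1 in 5 groups and overlapped it in range there; in DMSO-sEV cells at 72 h Col7a1 stood between them and overlapped both. Col7a1 and Col4a2 also overlapped in DMSO-sEV cells at 48 h and stood apart in the other 4 groups.

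Col6a2 and Col1a1 were near the limit of detection. Col1a1, a chain of the main fibrillar collagen, had at most 16.5 estimated counts in any library and was 0 in 1 non-adherent library at 72 h. Its partner chain Col1a2 did not pass the filter. Col6a2, 1 of the 3 main chains of collagen VI, had at most 36.9 estimated counts, while Col6a1 had between 159 and 827, and the third chain gene, Col6a3, did not pass the filter. The summed CPM of the 10 genes averaged 936.7, 949.1 and 590.5 at 72 h, in non-adherent, adherent 27HC-sEV and DMSO-sEV cells in that order. At 48 h the sums averaged 1290.0, 814.4 and 1206.8 CPM in the same order.

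**Figure D1:**
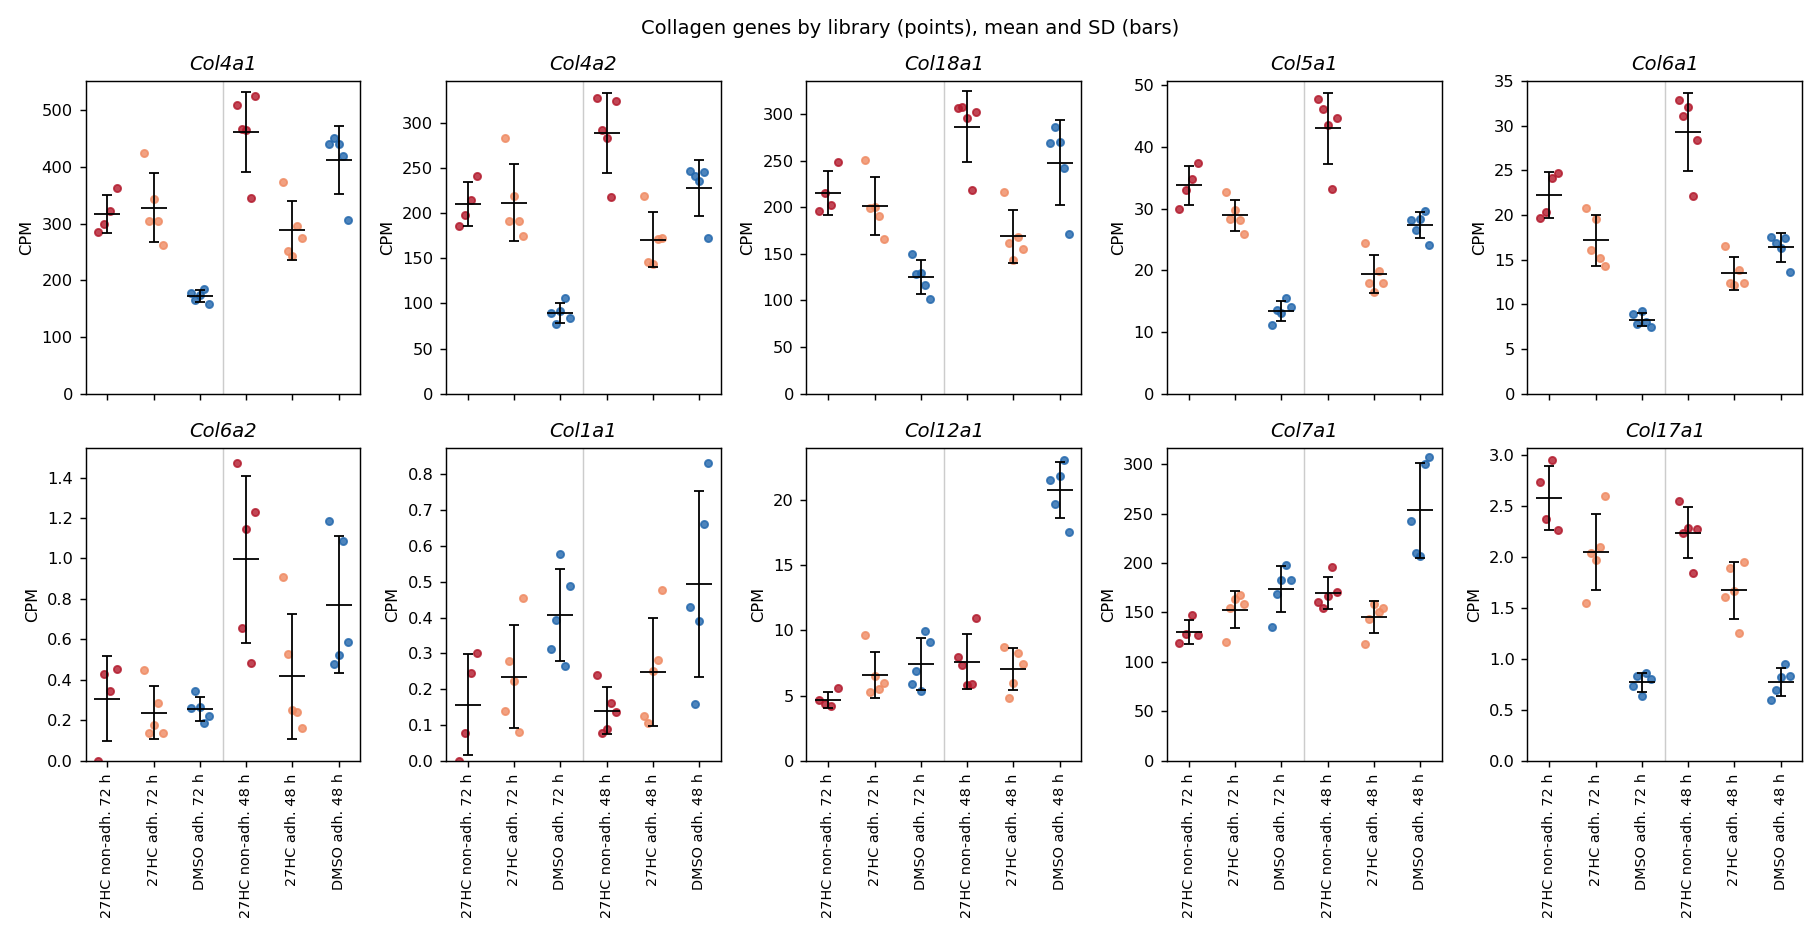
CPM of the 10 collagen genes in each of 29 libraries (points), with the group mean (wide tick) and SD (bars); each panel has its own linear axis from 0, with the 3 groups at 72 h left of the 3 at 48 h. DMSO-sEV cells at 72 h are lowest for Col4a1, Col4a2, Col18a1, Col5a1 and Col6a1, DMSO-sEV cells at 48 h are highest for Col12a1, and both DMSO-sEV groups are lowest for Col17a1.

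Adherent 27HC-sEV cells were compared with DMSO-sEV cells, which were adherent too. An effect of the vesicles on attached cells cannot be told apart here from a difference in which cells were adherent. At 72 h, 6 of the 10 collagen genes were higher and 0 lower, where 32.0% of all 13008 genes were higher and 33.4% lower at an adjusted p under 0.05. The 6 were both type IV chains, Col18a1, Col5a1, Col6a1 and Col17a1. At 48 h the balance was the other way: 1 gene, Col17a1, was higher and 7 were lower, where 21.3% of all genes were higher and 22.7% lower. The members' median log2 fold change was 0.81 at 72 h and -0.54 at 48 h, against 0.00 over all genes at both times.

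Of the basement membrane genes, Col4a1 (Entrez 12826) had 425, 304, 343, 305 and 263 CPM in adherent 27HC-sEV cells at 72 h, against 178, 165, 174, 185 and 158 CPM in DMSO-sEV cells. Every 27HC-sEV library lay above every DMSO-sEV library, and the gene was 1.91-fold higher (log2 fold change 0.93, SE 0.13, edgeR adjusted p = 3.58e-07). At 48 h it had 373, 252, 242, 296 and 275 CPM in adherent 27HC-sEV cells, against 440.4, 451, 439, 419.6 and 306 CPM in DMSO-sEV cells. There the order was turned round: the 27HC-sEV libraries were the lower ones, overlapping only through replicate 5 of the DMSO-sEV cells and replicate 1 of the 27HC-sEV cells, and the gene was 1.43-fold lower (log2 fold change -0.52, SE 0.13, edgeR adjusted p = 0.00142). Col4a2 (Entrez 12827) followed it, with 282, 191, 219, 191 and 174 CPM in adherent 27HC-sEV cells at 72 h, against 88.9, 77, 91.9, 106 and 83.5 CPM in DMSO-sEV cells. The groups did not overlap and the gene was 2.37-fold higher (log2 fold change 1.24, SE 0.13, edgeR adjusted p = 5.57e-09). At 48 h Col4a2 had 219, 145, 144, 171 and 172 CPM in adherent 27HC-sEV cells, against 246, 240.5, 235, 245 and 173 CPM in DMSO-sEV cells, overlapping through the same libraries, and was 1.34-fold lower (log2 fold change -0.42, SE 0.13, edgeR adjusted p = 0.0105).

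Col18a1 (Entrez 12822) had 251, 199, 201, 191 and 166 CPM in adherent 27HC-sEV cells at 72 h, against 150.2, 128, 129.6, 116 and 101 CPM in DMSO-sEV cells. The groups stood apart and the gene was 1.61-fold higher (log2 fold change 0.69, SE 0.13, edgeR adjusted p = 5.06e-05). Col18a1 at 48 h had 217, 162, 143, 168 and 155 CPM in adherent 27HC-sEV cells, against 269, 286, 270.1, 243 and 172 CPM in DMSO-sEV cells, and was 1.47-fold lower (log2 fold change -0.55, SE 0.13, edgeR adjusted p = 0.000989). With length and GC offsets, the log2 fold change at 72 h was 0.43 (SE 0.13, edgeR adjusted p = 0.00392) for Col4a1, 0.70 (SE 0.12, edgeR adjusted p = 9.29e-06) for Col4a2 and 0.15 (SE 0.15, edgeR adjusted p = 0.398) for Col18a1, so Col18a1 was no longer called. The length offset alone left Col18a1 called at 72 h (0.47, SE 0.14, edgeR adjusted p = 0.00354). Length and GC offsets left all 3 genes lower at 48 h, at -0.53, -0.41 and -0.58. Without replicates 1 to 3 of the DMSO-sEV cells, the 3 genes were no longer called at 48 h, with log2 fold changes of -0.32, -0.28 and -0.28 (edgeR adjusted p = 0.176, 0.269 and 0.198 for Col4a1, Col4a2 and Col18a1).

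The level of Col4a1 per kilobase was 1.47 to 1.56 times that of Col4a2 in adherent 27HC-sEV cells at 72 h and 1.71 to 2.09 times in DMSO-sEV cells, with no overlap. At 48 h the ratio ran from 1.55 to 1.69 in adherent 27HC-sEV cells and from 1.67 to 1.83 in DMSO-sEV cells, which overlapped. In non-adherent cells it averaged 1.48 (SD 0.02, n = 4) at 72 h and 1.56 (SD 0.03, n = 5) at 48 h. These are descriptions of levels, with no test; the transcripts are 6.6 kb with 57.7% GC for Col4a1 and 6.5 kb with 60.6% GC for Col4a2.

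**Figure D2:**
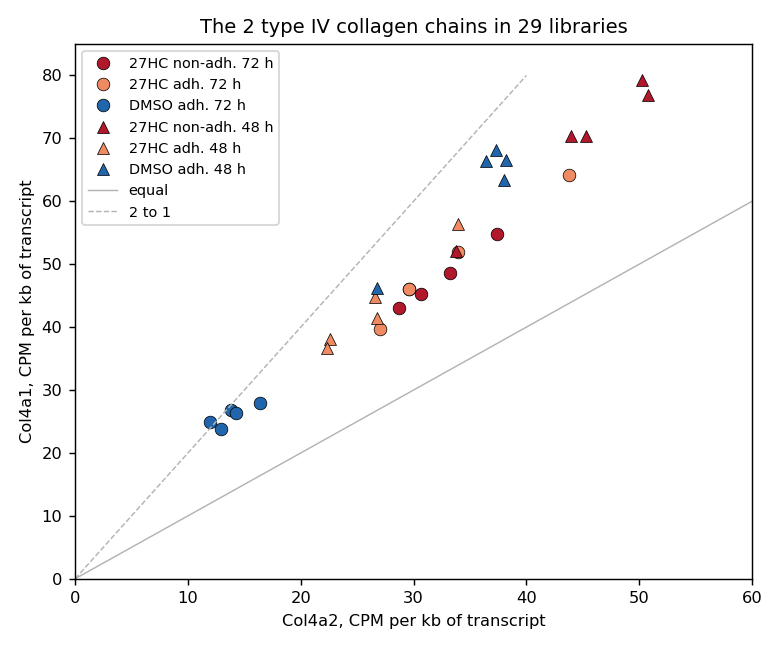
CPM per kb of Col4a1 against CPM per kb of Col4a2 in 29 libraries (circles 72 h, triangles 48 h), with lines of equal level and of 2 to 1. All points lie between ratios of 1.46 and 2.09, and the DMSO-sEV libraries at 72 h lie lowest on both axes.

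Among the fibril and pericellular genes, Col5a1 (Entrez 12831), which nucleates fibrils, had 32.6, 28.3, 29.8, 28.1 and 25.8 CPM in adherent 27HC-sEV cells at 72 h, against 11.1, 13.5, 13.2, 15.4 and 14.1 CPM in DMSO-sEV cells. The groups did not overlap, and Col5a1 was 2.15-fold higher (log2 fold change 1.10, SE 0.10, edgeR adjusted p = 4.95e-10). At 48 h it had 24.4, 18, 16.5, 19.9 and 17.9 CPM in adherent 27HC-sEV cells, against 28.2, 26.5, 28.4, 29.6 and 24.1 CPM in DMSO-sEV cells, overlapping only through replicate 1 of the first and replicate 5 of the other group, and was 1.41-fold lower (log2 fold change -0.50, SE 0.10, edgeR adjusted p = 0.000211). Col6a1 (Entrez 12833) had 20.8, 16, 19.5, 15.2 and 14.2 CPM in adherent 27HC-sEV cells at 72 h, against 8.97, 7.8, 9.2, 7.97 and 7.47 CPM in DMSO-sEV cells. It was 2.08-fold higher without overlap (log2 fold change 1.05, SE 0.12, edgeR adjusted p = 1.58e-08). The log2 fold changes at 72 h with length and GC offsets were 0.52 (SE 0.09, edgeR adjusted p = 2.11e-05) for Col5a1 and 0.71 (SE 0.11, edgeR adjusted p = 2.38e-06) for Col6a1. At 48 h Col6a1 was 1.22-fold lower (log2 fold change -0.28, SE 0.12, edgeR adjusted p = 0.0483), with 13.5 ± 1.84 CPM in adherent 27HC-sEV cells and 16.4 ± 1.6 CPM in DMSO-sEV cells (SD, n = 5 each). That call was lost on leaving out any 1 of 17 libraries (edgeR adjusted p = 0.0506 to 0.122), without replicates 1 to 3 of the DMSO-sEV cells (edgeR adjusted p = 0.389), and with limma-voom, RLE or upper-quartile factors or no filter (adjusted p = 0.0538 to 0.0629).

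Col12a1 (Entrez 12816), whose product binds the surface of fibrils, had 9.64, 5.24, 6.53, 5.5 and 5.96 CPM in adherent 27HC-sEV cells at 72 h, against 5.89, 6.87, 5.31, 9.93 and 9.07 CPM in DMSO-sEV cells. The groups overlapped and the difference did not pass the test (log2 fold change -0.18, SE 0.19, edgeR adjusted p = 0.426). Col12a1 at 48 h had 8.7, 4.79, 5.94, 8.26 and 7.45 CPM in adherent 27HC-sEV cells, against 21.5, 19.7, 21.9, 23 and 17.5 CPM in DMSO-sEV cells. Every 27HC-sEV library was below every DMSO-sEV library, and Col12a1 was 2.93-fold lower, the largest decrease among the 10 genes (log2 fold change -1.55, SE 0.18, edgeR adjusted p = 4.6e-08). Its transcript is the longest of the 10, and with length and GC offsets its log2 fold change was -0.65 (SE 0.15, edgeR adjusted p = 0.000514) at 72 h, which passed the test, and -1.63 (SE 0.14, edgeR adjusted p = 7e-11) at 48 h.

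For Col6a2 (Entrez 12834) the test was not passed at either time, with log2 fold changes of -0.03 (SE 0.59) at 72 h and -0.93 (SE 0.44) at 48 h (edgeR adjusted p = 0.974 and 0.0883). Col1a1 (Entrez 12842) gave -0.81 (SE 0.48) at 72 h and -0.94 (SE 0.45) at 48 h, also not passing (edgeR adjusted p = 0.143 and 0.093). Both rest on few counts. Col1a1 averaged 5.4 estimated counts in adherent 27HC-sEV cells and 8.5 in DMSO-sEV cells at 72 h, and 6.0 and 11.1 at 48 h. Col1a1 passed at 72 h with length and GC offsets (-1.26, edgeR adjusted p = 0.0213). At 48 h Col6a2 passed without replicate 1 of the adherent 27HC-sEV cells (-1.46, edgeR adjusted p = 0.0125), and Col1a1 passed without replicate 5 of those cells or replicate 2 of the DMSO-sEV cells (-1.32 and -1.12, edgeR adjusted p = 0.0332 and 0.0433). It also passed at 48 h without replicates 1 to 3 of the DMSO-sEV cells (-1.52, edgeR adjusted p = 0.0262) and, narrowly, with replicate number as a block (-0.99, edgeR adjusted p = 0.0491).

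The 2 genes of epithelial anchorage differed from each other. Col17a1 (Entrez 12821), the transmembrane collagen of hemidesmosomes, had 1.55, 2.04, 1.97, 2.1 and 2.6 CPM in adherent 27HC-sEV cells at 72 h, against 0.73, 0.835, 0.631, 0.865 and 0.8 CPM in DMSO-sEV cells. Col17a1 at 48 h had 1.61, 1.9, 1.66, 1.25 and 1.95 CPM in adherent 27HC-sEV cells, against 0.593, 0.691, 0.825, 0.946 and 0.832 CPM in DMSO-sEV cells. The groups did not overlap at either time, and Col17a1 was 2.61-fold higher at 72 h (log2 fold change 1.39, SE 0.16, edgeR adjusted p = 2.53e-08) and 2.16-fold higher at 48 h (log2 fold change 1.11, SE 0.17, edgeR adjusted p = 2.75e-06). With length and GC offsets it stayed called, at 0.99 (SE 0.17, edgeR adjusted p = 1.11e-05) and 1.12 (SE 0.17, edgeR adjusted p = 3e-06). Its level was low, at 11.6 to 22.9 estimated counts per library in DMSO-sEV cells at 72 h.

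Col7a1 (Entrez 12836), the anchoring fibril collagen, had 120.3, 155, 163, 168 and 158 CPM in adherent 27HC-sEV cells at 72 h, against 136, 169, 183, 198 and 183 CPM in DMSO-sEV cells. The groups overlapped and the test was not passed (log2 fold change -0.18, SE 0.11, edgeR adjusted p = 0.155). Col7a1 at 48 h had 118, 144, 159, 151 and 155 CPM in adherent 27HC-sEV cells, against 242, 210.0, 207, 299.7 and 307 CPM in DMSO-sEV cells. There the groups stood apart and Col7a1 was 1.74-fold lower (log2 fold change -0.80, SE 0.11, edgeR adjusted p = 1.31e-06). With the offsets it was lower at both times, at -0.79 (SE 0.12, edgeR adjusted p = 1.29e-06) for 72 h and -0.55 (SE 0.12, edgeR adjusted p = 0.000232) for 48 h. It also passed as lower at 72 h without replicates 1 to 3 of the DMSO-sEV cells (-0.30, edgeR adjusted p = 0.0314).

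**Figure D3:**
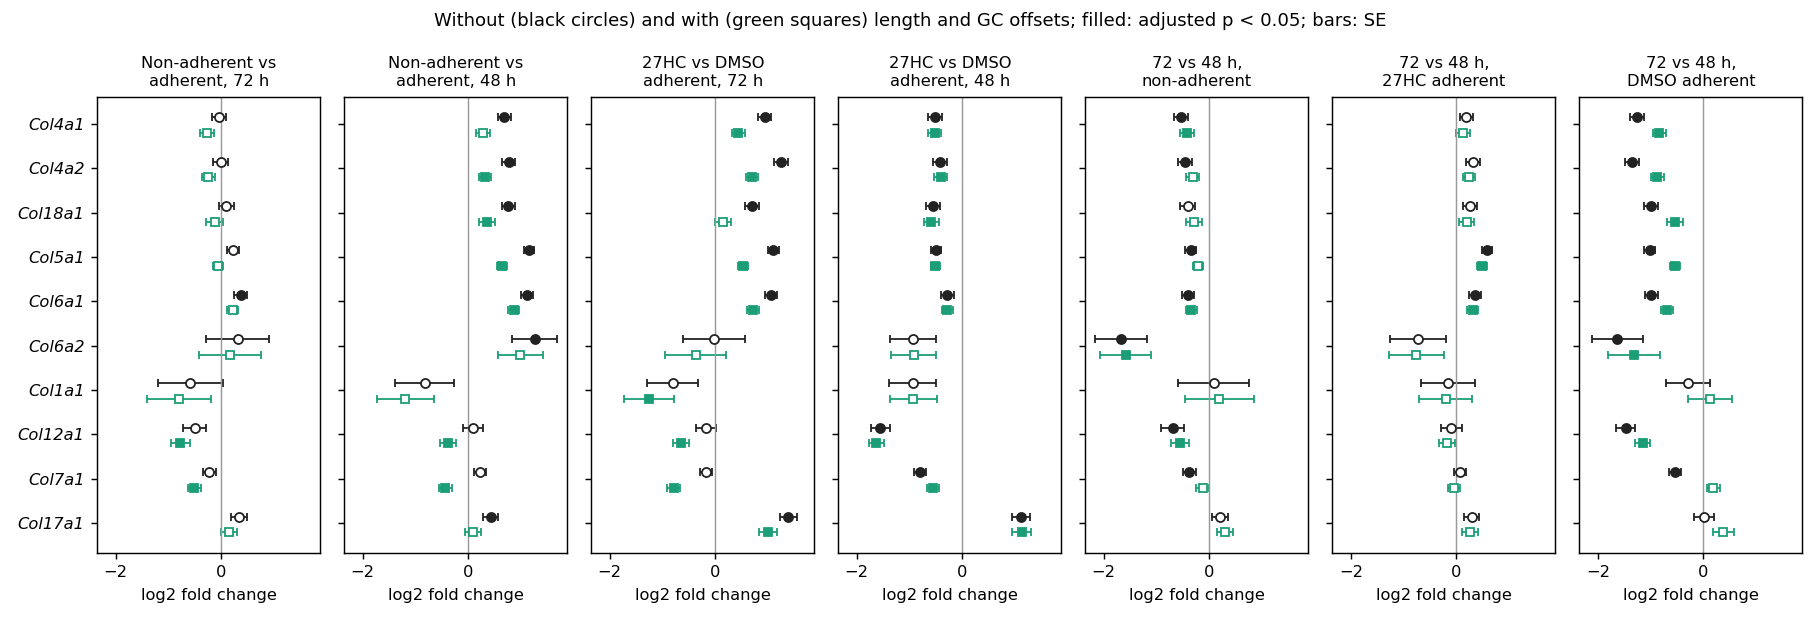
Log2 fold change (points) and its SE (bars) of the 10 collagen genes in 7 comparisons, from edgeR without (black circles) and with (green squares) per-library length and GC offsets; filled points passed an adjusted p of 0.05. Between adherent 27HC-sEV and DMSO-sEV cells, 6 filled circles lie right of 0 at 72 h, while at 48 h 7 lie left of 0 and 1, Col17a1, lies right of it.

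Non-adherent and adherent cells under 27HC-sEVs were compared to see how the fraction that was not attached differed. At 72 h, 1 of the 10 genes was higher and 0 were lower, where 14.7% of all genes were higher and 12.8% lower. At 48 h, 7 were higher and 0 lower, where 25.7% of all genes were higher and 28.4% lower. All members but Col6a1 and Col6a2 have transcripts of 5 kb or more. In that length class 28.2% of genes were higher and 5.46% lower at 72 h, and 52.1% and 9.25% at 48 h. The members' median log2 fold change was 0.04 at 72 h and 0.72 at 48 h, against 0.00 over all genes at both times. The adherent 27HC-sEV libraries are shared with the comparison against DMSO-sEV cells, so values of the 2 comparisons are not independent.

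The gene higher at 72 h was Col6a1, with 19.7, 20.4, 24.2 and 24.7 CPM in non-adherent cells, against 20.8, 16, 19.5, 15.2 and 14.2 CPM in adherent cells. The groups overlapped and it was 1.29-fold higher (log2 fold change 0.37, SE 0.12, edgeR adjusted p = 0.0252), a call lost with length and GC offsets (0.22, edgeR adjusted p = 0.148) and on leaving out any 1 of 5 libraries (replicates 2, 4 and 5 of the adherent and 3 and 4 of the non-adherent cells, edgeR adjusted p = 0.0579 to 0.0835). At 48 h it had 32.9, 31.1, 32.1, 22.1 and 28.4 CPM in non-adherent cells, against 16.5, 12.4, 12.1, 13.9 and 12.4 CPM in adherent cells, a difference of 2.17-fold without overlap (log2 fold change 1.12, SE 0.11, edgeR adjusted p = 8.48e-09). Col5a1 stood apart at 48 h in the same way, with 47.7, 46.1, 43.5, 33.1 and 44.7 CPM in non-adherent cells, against 24.4, 18, 16.5, 19.9 and 17.9 CPM in adherent cells. It was 2.22-fold higher (log2 fold change 1.15, SE 0.10, edgeR adjusted p = 6.54e-10), and its log2 fold change with length and GC offsets was 0.64 (SE 0.09, edgeR adjusted p = 1.27e-06). At 72 h its log2 fold change was 0.22 (SE 0.10) and did not pass (edgeR adjusted p = 0.107), though it did in a fit of only the groups compared (0.22, edgeR adjusted p = 0.0285). Col6a2 had 1.47, 0.656, 1.14, 0.481 and 1.23 CPM in non-adherent cells at 48 h, against 0.907, 0.527, 0.249, 0.242 and 0.159 CPM in adherent cells. The groups overlapped, and Col6a2 was 2.39-fold higher (log2 fold change 1.26, SE 0.43, edgeR adjusted p = 0.0149), a call lost without non-adherent replicate 1 (1.07, edgeR adjusted p = 0.0516) and with length and GC offsets (0.99, edgeR adjusted p = 0.0564).

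The basement membrane genes were higher in non-adherent cells at 48 h by smaller folds than Col5a1 and Col6a1. Col4a1 had 509, 466, 466, 344 and 524 CPM in non-adherent cells, against 373, 252, 242, 296 and 275 CPM in adherent cells, and was 1.61-fold higher (log2 fold change 0.68, SE 0.13, edgeR adjusted p = 8.49e-05). Col4a2 was 1.7-fold higher (log2 fold change 0.76, SE 0.13, edgeR adjusted p = 3.74e-05), at 289 ± 44.3 CPM in non-adherent cells and 170.4 ± 30.3 CPM in adherent cells (SD, n = 5 each). Col18a1 was 1.69-fold higher (log2 fold change 0.76, SE 0.13, edgeR adjusted p = 3.59e-05), at 286 ± 38 CPM in non-adherent cells and 169 ± 28.3 CPM in adherent cells (SD, n = 5 each). Replicate 4 of the non-adherent cells was the lowest of its group for all 3 genes and for Col5a1 and Col6a1; for Col4a1 and Col4a2 it lay below replicate 1 of the adherent cells, which was the only overlap. At 72 h the 3 genes did not pass, with log2 fold changes of -0.05 (SE 0.13), -0.01 (SE 0.14) and 0.10 (SE 0.14) for Col4a1, Col4a2 and Col18a1. With length and GC offsets at 48 h, Col4a2 (0.31, SE 0.12, edgeR adjusted p = 0.0297) and Col18a1 (0.36, SE 0.15, edgeR adjusted p = 0.0496) remained past the threshold and Col4a1 (0.28, SE 0.13, edgeR adjusted p = 0.0705) did not. With the length offset alone Col4a1 stayed called at 48 h (0.46, SE 0.12, edgeR adjusted p = 0.00248).

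Col17a1 was 1.34-fold higher in non-adherent cells at 48 h (log2 fold change 0.42, SE 0.14, edgeR adjusted p = 0.015), a call lost without replicate 4 of the adherent cells (0.33, edgeR adjusted p = 0.0577) and with length and GC offsets (0.09, edgeR adjusted p = 0.663). It averaged 2.24 ± 0.252 CPM in non-adherent cells and 1.67 ± 0.279 CPM in adherent cells (SD, n = 5 each). At 72 h it gave 0.34 (SE 0.15), which did not pass (edgeR adjusted p = 0.0847), though it did without replicate 5 of the adherent cells (0.43, edgeR adjusted p = 0.0435) and with replicate number as a block (0.38, edgeR adjusted p = 0.0449). Col7a1, Col12a1 and Col1a1 were not called at either time in the fit of all 6 groups without offsets, with log2 fold changes of -0.23, -0.51 and -0.59 at 72 h and 0.22, 0.10 and -0.83 at 48 h. With length and GC offsets, Col7a1 and Col12a1 passed as lower in non-adherent cells at 72 h, at -0.51 (SE 0.12, edgeR adjusted p = 0.00532) and -0.77 (SE 0.17, edgeR adjusted p = 0.0022), and at 48 h, at -0.43 (SE 0.12, edgeR adjusted p = 0.00368) and -0.38 (SE 0.15, edgeR adjusted p = 0.0391). With the length offset alone neither Col7a1 nor Col12a1 passed at 48 h (-0.09 and -0.29, edgeR adjusted p = 0.488 and 0.124). Without offsets, Col7a1 passed as higher at 48 h in 4 other fits, so its direction depended on the offset. These were with replicate number as a block (0.23, edgeR adjusted p = 0.0225), with only the groups compared (0.23, edgeR adjusted p = 0.0204), and without DMSO-sEV replicates 1 to 3 or 4 and 5 (0.24 and 0.22, edgeR adjusted p = 0.0241 and 0.0483). Col12a1 passed as lower at 72 h with only the groups compared and without DMSO-sEV replicates 4 and 5 (-0.51 in both, edgeR adjusted p = 0.0327 and 0.0427).

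Set against DMSO-sEV cells, non-adherent cells had 6 of the 10 genes higher and 3 lower at 72 h, where 38.3% of all genes were higher and 36.2% lower. At 48 h they had 4 higher and 3 lower, where 33.2% of all genes were higher and 33.4% lower. This comparison uses libraries of both comparisons above. Col17a1 was higher at both times, at 2.58 ± 0.318 CPM in 4 non-adherent libraries and 0.772 ± 0.0934 CPM in 5 DMSO-sEV libraries at 72 h, 3.3-fold (log2 fold change 1.72, SE 0.17, edgeR adjusted p = 4.99e-10), and 2.89-fold at 48 h (log2 fold change 1.53, SE 0.16, edgeR adjusted p = 2.81e-09). Col6a1 and Col5a1 were also higher at both times, by 2.69-fold and 2.5-fold at 72 h and by 1.79-fold and 1.57-fold at 48 h. Length and GC offsets gave log2 fold changes at 72 h of 1.14 (SE 0.18, edgeR adjusted p = 1.92e-06) for Col17a1, 0.93 (SE 0.12, edgeR adjusted p = 4.14e-08) for Col6a1 and 0.46 (SE 0.10, edgeR adjusted p = 0.000152) for Col5a1. At 48 h Col5a1 was then no longer called (0.13, edgeR adjusted p = 0.183).

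The type IV genes and Col18a1 were higher at 72 h, with log2 fold changes of 0.89 (SE 0.13) for Col4a1, 1.23 (SE 0.14) for Col4a2 and 0.79 (SE 0.14) for Col18a1; with length and GC offsets these were 0.17, 0.45 and 0.02, of which Col4a2 passed. At 48 h Col4a2 alone of the 3 passed (log2 fold change 0.34, SE 0.13, edgeR adjusted p = 0.0236), a call lost without replicate 5 of the DMSO-sEV cells or replicate 1 or 5 of the non-adherent cells (edgeR adjusted p = 0.0634 to 0.0844), without DMSO-sEV replicates 4 and 5 (0.26, edgeR adjusted p = 0.124), with no filter (edgeR adjusted p = 0.0568) and with length and GC offsets (-0.10, edgeR adjusted p = 0.465). Col18a1 passed at 48 h without DMSO-sEV replicates 1 to 3 (0.50, edgeR adjusted p = 0.0219). Col12a1, Col7a1 and Col1a1 were lower in non-adherent cells at both times. Col12a1 had 7.92, 7.33, 5.81, 5.89 and 11 CPM in non-adherent cells at 48 h, against 21.5, 19.7, 21.9, 23 and 17.5 CPM in DMSO-sEV cells, and was 2.74-fold lower without overlap (log2 fold change -1.46, SE 0.18, edgeR adjusted p = 6e-08). At 72 h its log2 fold change was -0.68 (SE 0.21), which was not called without DMSO-sEV replicates 4 and 5 (-0.37, edgeR adjusted p = 0.152) and was -1.42 (SE 0.17, edgeR adjusted p = 2.55e-08) with length and GC offsets. Col7a1 was 1.33-fold lower at 72 h and 1.49-fold lower at 48 h, with log2 fold changes under the offsets of -1.30 (SE 0.13, edgeR adjusted p = 7.02e-10) and -0.98 (SE 0.12, edgeR adjusted p = 2.7e-08). Col1a1 had 0.239, 0.0772, 0.088, 0.16 and 0.137 CPM in non-adherent cells at 48 h, against 0.428, 0.159, 0.391, 0.662 and 0.832 CPM in DMSO-sEV cells, overlapping, and was 3.41-fold lower (log2 fold change -1.77, SE 0.50, edgeR adjusted p = 0.00299), a call lost without DMSO-sEV replicates 4 and 5 (edgeR adjusted p = 0.0593). At 72 h the Col1a1 call (log2 fold change -1.39, SE 0.57, edgeR adjusted p = 0.0292) was lost on leaving out any 1 of 4 libraries (replicates 1 and 2 of the non-adherent and 3 and 5 of the DMSO-sEV cells, edgeR adjusted p = 0.0522 to 0.107) and without DMSO-sEV replicates 1 to 3 (-1.26, edgeR adjusted p = 0.114).

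The later time was compared with the earlier within each group of cells. In DMSO-sEV cells 0 of the 10 genes were higher and 8 lower at 72 h, where 27.8% of all genes were higher and 23.8% lower, and the members' median log2 fold change was -1.01 against 0.01 over all genes. Among genes with transcripts of 5 kb or more, 10.6% were higher and 40.6% lower. Col4a1 had 178, 165, 174, 185 and 158 CPM in DMSO-sEV cells at 72 h, against 440.4, 451, 439, 419.6 and 306 CPM at 48 h, 2.39-fold lower without overlap (log2 fold change -1.26, SE 0.13, edgeR adjusted p = 1.7e-08). Col12a1 had 5.89, 6.87, 5.31, 9.93 and 9.07 CPM at 72 h, against 21.5, 19.7, 21.9, 23 and 17.5 CPM at 48 h, 2.77-fold lower without overlap (log2 fold change -1.47, SE 0.18, edgeR adjusted p = 2.74e-07). The largest decrease, at few counts, was that of Col6a2, with 0.261, 0.344, 0.263, 0.188 and 0.222 CPM at 72 h against 1.19, 0.478, 0.521, 1.09 and 0.587 CPM at 48 h (log2 fold change -1.63, SE 0.49, edgeR adjusted p = 0.00681). Col6a2 was not called without replicates 1 to 3 or without replicates 4 and 5 of the DMSO-sEV cells (edgeR adjusted p = 0.0751 and 0.0707). Col4a2, Col18a1, Col5a1, Col6a1 and Col7a1 gave log2 fold changes of -1.35 (SE 0.13), -0.99 (SE 0.13), -1.02 (SE 0.10), -0.99 (SE 0.12) and -0.54 (SE 0.11). Each of the 8 had all 72 h libraries below all 48 h libraries. The same groups differ in their length slopes, and with length and GC offsets 7 of the 8 were still lower, with log2 fold changes of -0.83 for Col4a1, -0.87 for Col4a2, -0.55 for Col5a1, -0.54 for Col18a1 and -1.15 for Col12a1. Col7a1 then had 0.19 and did not pass (edgeR adjusted p = 0.19). Col17a1 and Col1a1 did not pass, at 0.01 (SE 0.18) and -0.29 (SE 0.43).

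In adherent 27HC-sEV cells 2 genes were higher at 72 h than at 48 h and 0 lower, where 6.58% of all genes were higher and 6.54% lower. They were Col5a1, at 32.6, 28.3, 29.8, 28.1 and 25.8 CPM at 72 h against 24.4, 18, 16.5, 19.9 and 17.9 CPM at 48 h, 1.49-fold and without overlap (log2 fold change 0.58, SE 0.10, edgeR adjusted p = 0.000192), and Col6a1 (log2 fold change 0.35, SE 0.12, edgeR adjusted p = 0.042). The Col6a1 call was lost on leaving out any 1 of 6 libraries (replicates 2 to 5 at 48 h and 1 and 3 at 72 h), with limma-voom, with no filter and with only the groups compared (adjusted p = 0.0511 to 0.0537). Col4a2 passed without replicate 1 at 48 h (0.42, edgeR adjusted p = 0.0344).

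In non-adherent cells 0 genes were higher at 72 h and 7 lower, where 5.7% of all genes were higher and 6.91% lower. Their log2 fold changes were -0.54 (SE 0.14) for Col4a1, -0.46 (SE 0.14) for Col4a2, -0.35 (SE 0.10) for Col5a1, -0.40 (SE 0.12) for Col6a1, -1.67 (SE 0.49) for Col6a2, -0.38 (SE 0.12) for Col7a1 and -0.70 (SE 0.21) for Col12a1. Col6a2, Col7a1 and Col12a1 had all 72 h libraries below all 48 h libraries, and the other 4 overlapped. These calls sat near the threshold (edgeR adjusted p = 0.00724 to 0.0379), and without replicate 1 at 72 h only Col4a1 of the 7 passed. Leaving out each of 6 other libraries (replicates 1, 2, 3 and 5 at 48 h, and 2 and 3 at 72 h) left between 2 and 4 calls. Under length and GC offsets 3 of the 7 were no longer called, Col4a2 (-0.32, SE 0.12, edgeR adjusted p = 0.076), Col5a1 (-0.22, SE 0.09, edgeR adjusted p = 0.106) and Col7a1 (-0.12, SE 0.12, edgeR adjusted p = 0.552). Col18a1 (log2 fold change -0.41, SE 0.14, edgeR adjusted p = 0.0518) missed the threshold and passed it when any 1 of 9 libraries was left out, and with replicate number as a block (-0.46, edgeR adjusted p = 0.00923).

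The change with time differed between the adherent groups. For 7 of the 10 genes the log2 fold change of adherent 27HC-sEV against DMSO-sEV cells was higher at 72 h than at 48 h by a test of the difference itself, and for 0 it was lower, where 15.9% of all genes were higher and 21.4% lower. Among genes with transcripts of 5 kb or more, 26.9% were higher and 8.34% lower. The difference was 1.66 (SE 0.19) for Col4a2 (edgeR adjusted p = 2.33e-07), 1.60 (SE 0.15) for Col5a1 (edgeR adjusted p = 1.12e-08) and 1.45 (SE 0.18) for Col4a1 (edgeR adjusted p = 8.16e-07). It was 1.38 (SE 0.26) for Col12a1, 1.34 (SE 0.17) for Col6a1, 1.24 (SE 0.19) for Col18a1 and 0.62 (SE 0.16) for Col7a1. With length and GC offsets it remained called in 6 of these, at 1.11 for Col4a2, 1.03 for Col5a1, 0.96 for Col4a1, 0.73 for Col18a1 and 0.97 for Col12a1 among others, and it was -0.24 for Col7a1, which did not pass. Col17a1, higher at both times, had a difference of 0.28 (SE 0.24) that did not pass (edgeR adjusted p = 0.462).

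For non-adherent against adherent cells the difference between times was in the other direction. It was called higher at 72 h in 0 genes and lower in 5, where 1.18% of all genes were higher and 3.41% lower. Among genes with transcripts of 5 kb or more, 0.439% were higher and 7.86% lower. Col5a1 had -0.93 (SE 0.15, edgeR adjusted p = 0.000305), Col6a1 -0.75 (SE 0.16, edgeR adjusted p = 0.00647), Col4a2 -0.78 (SE 0.19), Col4a1 -0.73 (SE 0.18) and Col18a1 -0.66 (SE 0.19). Without non-adherent replicate 1 at 72 h, 2 of the 5 remained, Col5a1 and Col6a1. The Col18a1 call was lost on leaving out any 1 of 15 libraries. Col4a1 (-0.55, SE 0.18, edgeR adjusted p = 0.0684) and Col18a1 (-0.48, SE 0.22, edgeR adjusted p = 0.19) were no longer called under length and GC offsets, which left 3 of the 5. Col7a1 was not called (log2 fold change -0.45, SE 0.17, edgeR adjusted p = 0.131), but passed as lower with replicate number as a block (-0.42, edgeR adjusted p = 0.0354). Both differences between times use the adherent 27HC-sEV libraries.

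**Figure D4:**
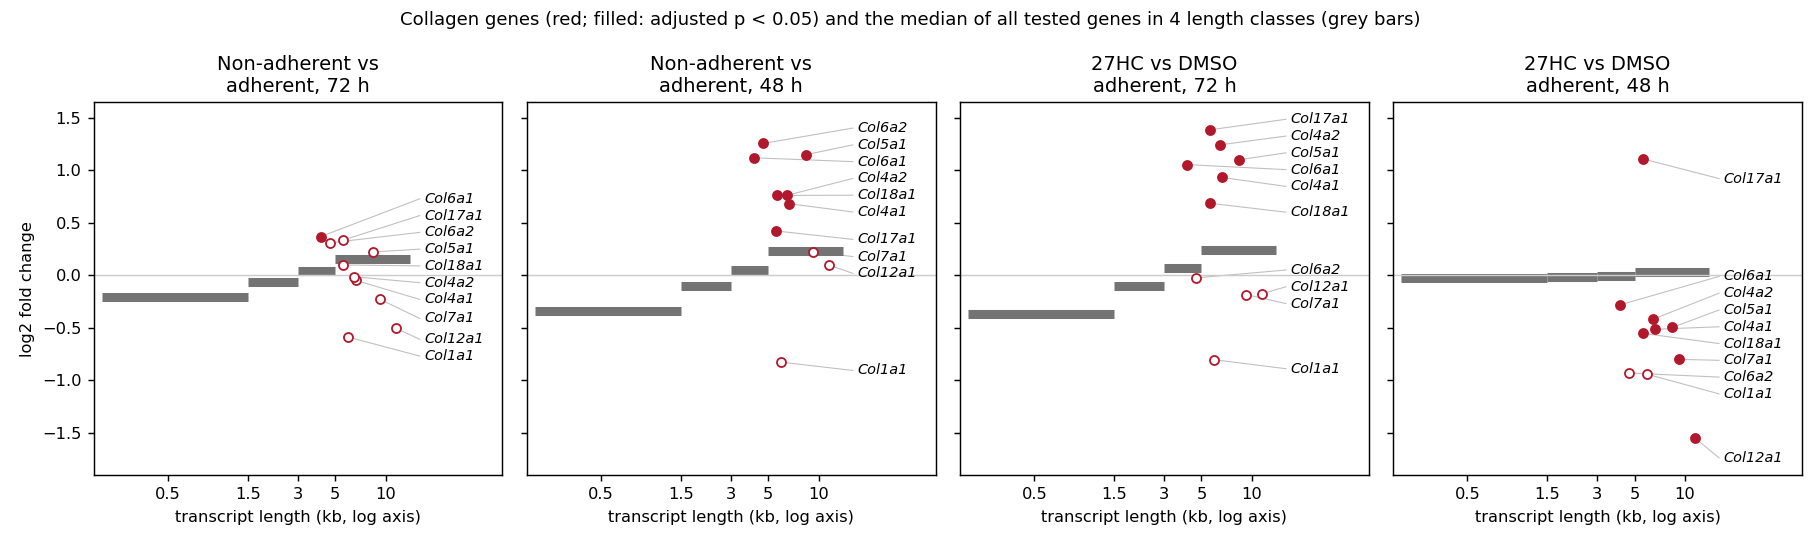
Log2 fold change of the 10 collagen genes (red; filled where the adjusted p was under 0.05) against transcript length in kb (log axis), with grey bars at the median of all tested genes of known length in classes below 1.5 kb, 1.5 to 3 kb, 3 to 5 kb and 5 kb or more; the first and last class are open-ended, and the ends of their bars are arbitrary. The class of 5 kb or more has a median of 0.16 and 0.23 between non-adherent and adherent cells at 72 and 48 h, and of 0.24 and 0.03 between 27HC-sEV and DMSO-sEV adherent cells at 72 and 48 h.

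Read against the length classes, the 10 genes lay on both sides of the median of their class. Of genes with transcripts of 5 kb or more, 52.7% were higher and 15.8% lower in adherent 27HC-sEV than in DMSO-sEV cells at 72 h, and 24.1% higher and 20.2% lower at 48 h. The log2 value of the length trend at Col12a1, the longest, was 0.40 at 72 h and 0.06 at 48 h in that comparison, and at Col6a1, the shortest, 0.10 and 0.01. Measured values without an offset at 72 h were -0.18 for Col12a1 and 1.05 for Col6a1. Counts of genes called with length and GC offsets were 5 higher and 3 lower at 72 h and 1 higher and 7 lower at 48 h between adherent 27HC-sEV and DMSO-sEV cells. Between non-adherent and adherent cells they were 0 higher and 2 lower at 72 h and 4 higher and 2 lower at 48 h. With the length offset alone, adherent 27HC-sEV against DMSO-sEV cells had 6 higher and 2 lower at 72 h. At 48 h they had 1 higher and 7 lower. Non-adherent against adherent cells then had 1 higher and 2 lower at 72 h, and 6 higher and 0 lower at 48 h. Over all comparisons 6 single-gene calls were lost with length alone and 13 with length and GC. Some calls were thus lost only once GC was added. An offset also takes out any real change that runs with length or GC, and the 2 cannot be told apart here.

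Genes that act on collagen were followed by lists. In adherent 27HC-sEV against DMSO-sEV cells, 32.0% of all genes were higher and 33.4% lower at 72 h. At 48 h 21.3% were higher and 22.7% lower. List counts near these shares are not read as results about the list. Between adherent 27HC-sEV and DMSO-sEV cells, 11 of 18 tested genes for chain modification and folding were higher at 72 h and 0 lower, with a median log2 fold change of 0.49, and 4 higher and 2 lower at 48 h, with a median of 0.02. The gene with the smallest p was P4ha2, a prolyl 4-hydroxylase subunit, at both times (1.41, SE 0.11 and 0.70, SE 0.11), with Plod1, Plod2 and Plod3, the lysyl hydroxylases, at 1.23, 0.75 and 0.99 at 72 h. P3h3, a member of the prolyl 3-hydroxylase family, had the smallest p among those lower at 48 h (-0.33, SE 0.12). Of 14 tested genes for export and procollagen processing 7 were higher and 4 lower at 72 h, and 5 higher and 5 lower at 48 h. Adamts14, a procollagen N-proteinase, led those higher at both times (1.22, SE 0.07 and 0.51, SE 0.07), and Mia3, which loads procollagen into transport carriers, was at 1.10 at 72 h. Sec13, of the outer coat of those carriers, led those lower at 72 h (-0.52, SE 0.10), and Bmp1, the procollagen C-proteinase, at 48 h (-0.53, SE 0.07).

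The next lists have the same shares of all genes beside them, 32.0% higher and 33.4% lower at 72 h. For 48 h these are 21.3% and 22.7%. Of 6 tested cross-linking genes 3 were higher and 0 lower at 72 h, led by Tgm2, a transglutaminase (1.03, SE 0.11). They included Pxdn, the peroxidase that cross-links type IV collagen (0.77). At 48 h 1 was higher, Loxl4 (0.26, SE 0.10), and 1 lower, Loxl3 (-0.53, SE 0.10), both lysyl oxidase-like enzymes. Of 12 tested collagen receptors 9 were higher and 0 lower at 72 h (median 0.59), led by Adgrg6, a receptor that binds type IV collagen (1.38, SE 0.10), with Ddr1, the discoidin domain receptor kinase, at 1.03. At 48 h 0 were higher and 6 lower (median -0.21), led by the integrin gene Itga3 (-0.68, SE 0.11). Of 10 tested proteases 9 were higher and 1 lower at 72 h, and 4 higher and 1 lower at 48 h. Mmp15, a membrane-type metalloproteinase, led those higher at 72 h (1.79, SE 0.20) and Mmp3, stromelysin, at 48 h (0.92, SE 0.14), and the gene that was lower at both times was Mmp9, the gelatinase that cuts type IV collagen (-2.37, SE 0.14 and -2.12, SE 0.14). Of 9 tested hemidesmosome and anchoring partners of types XVII and VII, 6 were higher and 1 lower at 72 h, and 0 higher and 6 lower at 48 h. Dst, the plakin that binds type XVII collagen, led those higher at 72 h (1.15, SE 0.10), and Krt14, a basal keratin, led those lower at both times (-1.22, SE 0.08 and -0.84, SE 0.07). Of 15 tested transcription and TGF-beta regulators 5 were higher and 6 lower at 72 h, led by Tgfbr2 (1.09, SE 0.07) and Ccn2 (-1.51, SE 0.09), and 3 higher and 7 lower at 48 h, led by Cebpb (0.58, SE 0.06) and again Ccn2 (-2.10, SE 0.09).

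Between non-adherent and adherent cells, 14.7% of all genes were higher and 12.8% lower at 72 h. At 48 h 25.7% were higher and 28.4% lower. Of the 12 receptors 2 were higher and 1 lower at 72 h, and 11 higher and 0 lower at 48 h (median 0.04 and 0.70). The integrin gene Itga1, whose product pairs with that of Itgb1 to bind type IV collagen, led those higher at both times (0.63, SE 0.17 and 2.04, SE 0.16), and Itgb1 was the one lower at 72 h (-0.45, SE 0.12). Of the 10 proteases 2 were higher and 1 lower at 72 h, and 6 higher and 0 lower at 48 h, with the collagenase gene Mmp13 leading at both times (2.10, SE 0.18 and 1.52, SE 0.18). Adam9 was the one lower at 72 h (-0.34, SE 0.11). Of the 18 modification and folding genes 0 were higher and 4 lower at 72 h, led by Plod2 (-0.48, SE 0.08), and 6 higher and 2 lower at 48 h, led by Plod3 (0.36, SE 0.10) and P4hb (-0.45, SE 0.12), the subunit shared by prolyl 4-hydroxylases. Of the 14 export and processing genes 3 were higher and 2 lower at 72 h, and 7 higher and 2 lower at 48 h, led in each case by Adamts14 (0.34, SE 0.07 and 0.80, SE 0.07) on the higher side. On the lower side Pcolce2 led at 72 h (-0.38, SE 0.11) and Sec13 at 48 h (-0.44, SE 0.10).

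Of the 6 cross-linking genes 1 was higher, Loxl3 (0.47, SE 0.10), and 1 lower, Loxl4 (-0.30, SE 0.10), at 72 h, and 3 higher and 0 lower at 48 h, led by Loxl3 (1.26, SE 0.10). Of the 9 anchoring partners 2 were higher and 1 lower at 72 h, and 4 higher and 1 lower at 48 h, with the plakin gene Plec leading those higher (0.35, SE 0.10 and 1.10, SE 0.09) and Krt14 lower at both times (-0.71, SE 0.09 and -1.44, SE 0.08). Of the 15 regulators 4 were higher and 2 lower at 72 h, and 9 higher and 2 lower at 48 h, with Ccn2 leading those lower (-2.37, SE 0.11 and -2.07, SE 0.10). Cebpb led those higher at 72 h (0.28, SE 0.06) and Smad3, a TGF-beta signal transducer, at 48 h (0.96, SE 0.10). All values in brackets are log2 fold changes with SE from the same edgeR fit, each past an adjusted p of 0.05. The lists, like the 10 genes, are read against the shares of all genes. Between non-adherent and adherent cells these were 14.7% higher and 12.8% lower at 72 h, and 25.7% and 28.4% at 48 h.

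Of the 34 other collagen genes, 10 passed the filter, 24 did not, and 8 of those were under 1 estimated count in every library. Between adherent 27HC-sEV and DMSO-sEV cells 7 of the 10 were higher and 0 lower at 72 h. Of all genes, 32.0% were higher and 33.4% lower there. At 48 h 2 of the 10 were higher and 3 lower, where 21.3% of all genes were higher and 22.7% lower. Col8a1, a short-chain collagen, had the highest level of the 10, at 272 ± 21.4 CPM in adherent 27HC-sEV cells and 216 ± 25.9 CPM in DMSO-sEV cells at 72 h (SD, n = 5 each), and was higher there (log2 fold change 0.33, SE 0.11, edgeR adjusted p = 0.00768). The third type IV chain gene detected, Col4a5, had 45.8 ± 3.81 CPM in adherent 27HC-sEV cells and 23.0 ± 3.21 CPM in DMSO-sEV cells at 72 h (SD, n = 5 each) and was also higher (log2 fold change 1.001, SE 0.11, edgeR adjusted p = 4.35e-09). Unlike Col4a1 and Col4a2, it was higher at 48 h as well (log2 fold change 0.26, SE 0.10, edgeR adjusted p = 0.0441). Col4a6, its head-to-head neighbour in mammals, was higher at 72 h (log2 fold change 1.52, SE 0.30, edgeR adjusted p = 6.03e-05) and did not pass at 48 h (log2 fold change 0.27, SE 0.27, edgeR adjusted p = 0.456). Col16a1, which is found at fibrils and basement membranes, was lower at 48 h (log2 fold change -0.82, SE 0.08, edgeR adjusted p = 1.1e-09), and at 72 h was higher by a small amount (log2 fold change 0.18, SE 0.08, edgeR adjusted p = 0.0414). Col24a1, a minor fibrillar collagen at no more than 1.86 CPM in any library, was higher in non-adherent than in adherent cells at 72 h (log2 fold change 1.28, SE 0.30, edgeR adjusted p = 0.00439) and at 48 h (log2 fold change 2.11, SE 0.37, edgeR adjusted p = 3.99e-05).

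Across the 29 libraries the log2 CPM of the type IV pair had a Pearson r of 0.98, and Col4a1 had 0.96 with Col18a1, 0.89 with Col5a1 and 0.88 with Col6a1. Col5a1 had 0.97 with Col6a1. Col12a1 and Col7a1 had 0.73 with each other, and Col7a1 -0.01 with Col4a2. Col17a1 had -0.63 with Col12a1 and -0.58 with Col7a1. These values describe libraries that fall into 6 groups and share the groups' differences and the length trend, so no test is attached. The genes most like each member by r over the same 29 libraries were Dag1 (0.99) for Col4a1, Itgav (0.99) for Col4a2, Axl (0.99) for Col18a1, Tpcn1 (0.97) for Col5a1, Abhd2 (0.98) for Col6a1, Csf1 (0.95) for Col12a1, Ucn2 (0.88) for Col7a1 and Serac1 (0.97) for Col17a1. For Col6a2 and Col1a1, with few counts, the highest r were 0.78 (Gdpd5) and 0.74 (Ccdc9b).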

How the data were processed

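Polyadenylated RNA was sequenced, per the labels' protocols. The submitters' processing notes name Salmon 1.10.0, GRCm39 and mm39; summing to genes and strand use are not given in the sources used here. The authors deposited estimated counts per gene, of which 40.8% of values were not whole, and log2 CPM for 13087 genes, used in 1 alternative. Estimated counts were rounded. Genes passing filterByExpr (minimum count 10, minimum total 15) were scaled by TMM, and all 6 groups were fitted together with edgeR's quasi-likelihood model (glmQLFit, robust; glmQLFTest, two-sided), calling genes at a p of 0.05 adjusted over the 13008 genes by Benjamini and Hochberg's method. The SE is the absolute log2 fold change over the square root of F. CPM use the TMM factors, with 2 as prior count on the log2 scale. Analyses ran in R 4.3.3 with DESeq2 1.42.0, limma 3.58.1 and edgeR 4.0.16. The scripts were tested on simulated data.

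Offsets were natural splines (4 degrees of freedom) in log2 length, or in length, GC and their products. They were fitted per library to log2 CPM less the gene's mean over the 29 libraries. The fits used the 10637 genes whose log2 CPM averaged 1 or more. Lengths are of the longest GENCODE M21 transcript per symbol, protein-coding where there is one, for 12225 of 13008 genes (93.98%), on GRCm38, which is not the build named by the submitters. CPM per kb use the same lengths. The library totals given are sums of the deposited estimated counts. Overlap of groups is between the lowest and highest library. The first few bases of Col4a1 and Col4a2 overlap on opposite strands, and reads there cannot be told apart without strand.

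The 10 genes and the lists were chosen with earlier results of these data known. All 10 are named; from each list the gene with the smallest p in each direction is named, and others to describe a count. Likeness used genes above the same average, leaving out clone, predicted-gene and pseudogene names. Alternatives were DESeq2, limma-trend on the deposited log2 CPM, limma-voom, other scaling factors (upper-quartile, RLE), other filters, unrounded counts, a replicate block, only the groups compared, the 2 offsets, DMSO-sEV replicates 1 to 3 or 4 and 5 left out, and each library left out. A change of sign where neither value was called counts as no change. Replicate numbers paired no libraries in the fit of all 6 groups and were used only in the replicate block. Same-numbered libraries of DMSO-sEV cells at 72 and 48 h had deviations from their group means that correlated across genes at r of 0.12 to 0.66. Only replicates 4 and 5 correlated best with their own number there, so a pairing by number was not taken as shown.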

Additional observations from a re-analysis of the deposited data

Results flagged for a closer look

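In 8 of 60 sets of values tested, 1 library stood apart from the others by Dixon's test. Each set was 1 gene in 1 group of 4 or 5 libraries. Chance gives about 5% of sets where these are independent. These sets were not, since the genes share libraries, several are correlated, and some libraries were flagged for more than 1 gene. The count was therefore not read against that share. Non-adherent replicate 4 at 48 h was lowest for Col4a1 (log2 CPM 8.43), Col5a1 (5.05) and Col18a1 (7.77). Replicate 5 of the DMSO-sEV cells at 48 h was lowest for Col4a1 (8.26), Col4a2 (7.43) and Col6a1 (3.78). Non-adherent replicate 1 at 72 h was lowest for Col6a2 (-3.52, at 0 counts), and replicate 1 of the adherent 27HC-sEV cells at 72 h for Col7a1 (6.91).

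For the 10 genes, 12 differences between times passed the test of the difference itself. The log2 fold change of adherent 27HC-sEV against DMSO-sEV cells was higher at 72 h than at 48 h for Col4a1 by 1.45, Col4a2 by 1.66, Col5a1 by 1.60, Col6a1 by 1.34, Col7a1 by 0.62, Col12a1 by 1.38 and Col18a1 by 1.24. That of non-adherent against adherent cells differed by -0.73 for Col4a1, -0.78 for Col4a2, -0.93 for Col5a1, -0.75 for Col6a1 and -0.66 for Col18a1.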

How the results depend on the processing

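Of 4694 recomputed single-gene values, 4516 kept direction and side of the threshold, 127 lost a call and 46 gained one. The other 5 changed sign under the length and GC offset, with a call in only 1 of the 2 fits. Values in brackets are with that offset. Col12a1 (-0.38) and Col7a1 (-0.43) between non-adherent and adherent cells at 48 h were called with it and not in the fit of all 6 groups without offsets. Col4a2 between non-adherent and DMSO-sEV cells at 48 h (-0.10) was called without the offset and not with it. The same held for Col7a1 in DMSO-sEV cells between 72 and 48 h (0.19). It also held for Col7a1 in the difference between times of 27HC-sEV against DMSO-sEV cells (-0.24). Counts of calls among the 10 genes that changed by over 1.5 times were these. Without DMSO-sEV replicates 1 to 3, adherent 27HC-sEV against DMSO-sEV cells at 48 h had 5. Non-adherent against adherent cells at 72 h had 0 with no filter except 1 count, 2 with the replicate block, 3 with the length offset, 2 with the length and GC offset, 2 without DMSO-sEV replicates 4 and 5, and 3 with the fit restricted to the groups compared. Adherent 27HC-sEV cells between 72 and 48 h had 1 with no filter, with that restricted fit and with limma-voom. Non-adherent cells between 72 and 48 h had 4, and the difference between times of non-adherent against adherent cells 3, with the length and GC offset. The cause was not tested. Leaving out each library gave 6 to 6 calls for adherent 27HC-sEV against DMSO-sEV cells at 72 h and 7 to 9 at 48 h, 0 to 1 for non-adherent against adherent cells at 72 h and 6 to 7 at 48 h, 8 to 9 for non-adherent against DMSO-sEV cells at 72 h and 6 to 7 at 48 h, 8 to 8 for 72 against 48 h in DMSO-sEV cells, 1 to 3 in adherent 27HC-sEV and 1 to 8 in non-adherent cells, and 7 to 7 and 2 to 5 for the differences between times of 27HC-sEV against DMSO-sEV and of non-adherent against adherent cells. The labels do not say that replicate numbers pair libraries, and over 70 same-numbered pairs the r of deviations from group means ran from -0.41 to 0.66, with 32 over 0.1; 23 correlated best with their own number. All pairs were over 0.1 between DMSO-sEV cells at 72 and 48 h alone of the 15 pairs of groups, and the replicate block changed no call among the 10 genes in that comparison. In other comparisons it added 5 single-gene calls and lost 0. Over all genes the block gave 5503 calls, against 3577 without it, between non-adherent and adherent cells at 72 h. A fit with the removed non-adherent replicate 5 could not be run, since the authors' values cover 29 libraries and not that one. Depth limits Col1a1 and Col6a2, at no more than 16.5 and 36.9 estimated counts.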
